A study of Homo sapiens with 16 samples.

Results

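The 41 genes described here encode proteins that build ribosomes in the nucleolus, and they were chosen by name as a fixed list of nucleolar assembly genes. All 41 were among the 60642 gene symbols of the table, and all 41 passed the filter on low values (a TPM of at least 1 in 2 or more libraries) that left 16636 genes for testing. RNA sequencing was done on whole cultures of LNCaP, an androgen-dependent prostate cancer cell line, so every group is a single cell line in culture. All cells grew for 72 h with 5% fetal bovine serum, were depleted of androgen for 48 h in 5% charcoal-stripped serum, and were then treated for 48 h. VEH received the solvents ethanol and DMSO, and DHT received 10 nM of the androgen dihydrotestosterone. BIC.VEH, ENZ.VEH and APA.VEH received 10 µM of the androgen receptor antagonist bicalutamide, enzalutamide or apalutamide without DHT, and BIC.DHT, ENZ.DHT and APA.DHT received the same antagonists together with 10 nM DHT. Each of these 8 groups had 2 libraries, labelled as biological replicates 1 and 2, which makes 16 libraries.

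Ribosome production starts when RNA polymerase I copies the ribosomal DNA repeats into a long precursor RNA. Small nucleolar RNAs carried by protein complexes (snoRNPs) then guide the chemical modification of this precursor, C/D box snoRNPs by methylation and H/ACA snoRNPs by conversion of uridine to pseudouridine. Assembly factors cut and fold the precursor and load ribosomal proteins onto it along separate routes for the small and the large subunit, before both subunits leave for the cytoplasm. In prostate cancer, as in other tumours, large nucleoli are a familiar sign of growing cells.

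The libraries matched the cell line in their luminal markers, whose summed TPM ran from 2507 to 7481, while the basal marker TP63 stayed at or below 0.04 and the T cell marker CD3E was listed at 0 in all 16 libraries. Summed TPM over the whole lists ran from 0 to 1.75 for 3 basal, from 11.4 to 32.9 for 4 stromal, from 0.93 to 12.2 for 4 immune and from 0.62 to 1.9 for 3 endothelial markers. Most of the stromal sum was COL1A1, while COL1A2 and DCN stayed at or below 0.07, and most of the immune sum was CD68. With DHT against VEH, KRT14 of the basal list was higher (log2 fold change 1.34, limma adjusted p = 0.00394; at most 1.68 TPM) and COL1A1 was lower (-1.07, adjusted p = 0.00357), and their part in the results was not tested. KLK3, the gene for prostate-specific antigen, was at 53.0 and 24.0 TPM with VEH but at 4102 and 2422 TPM with DHT. TPM keeps no read depth; per the labels, each library had roughly 40 M read pairs. Libraries ENZ.DHT 1 and APA.DHT 1 stood apart on a median-ratio scale (0.896 and 0.900, with a median of 1.02 over all libraries), and 21 of the 41 genes had their lowest level in ENZ.DHT 1. DHT 1 came next on that scale (0.941) and had the highest mitochondrial share of TPM, 22.3%. DHT 2 had the lowest share, 14.7%, with a median of 16.9% over all libraries. For 36 of the 41 genes the highest level was in DHT 2. Both DHT libraries enter each comparison with DHT alone. Medians within each replicate, or without ENZ.DHT 1 and APA.DHT 1, are given beside the results that use them.

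Levels across the 41 genes spanned a wide range on the length-corrected TPM scale. NPM1, a histone chaperone and shuttle of pre-ribosomes, was the most abundant with a mean of 1229 TPM over 16 libraries, followed by NCL (nucleolin) at 451 TPM and NOP10, a small subunit of H/ACA snoRNPs, at 429 TPM. At the other end stood UTP20, a scaffold of the small subunit processome, at 5.09 TPM and HEATR1, another protein of that particle, at 9.86 TPM. Each gene therefore had measurable expression in this line, and precision was judged from the spread between replicates.

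DHT against VEH asked how the androgen alone moved ribosome biogenesis genes. In this comparison 36 of the 41 genes were higher with DHT, with a median log2 fold change of 0.41 against -0.098 over all 16636 genes. The model without a replicate term called 3 of them, all higher (8 at an unadjusted p below 0.05), where 3.63% of all genes were called higher. These were RRP9, EBNA1BP2 and NOP16, which act in the small and the large subunit routes. The count was 0 without the second DHT library and 1 without either VEH library. With the replicate number as a block, which took out a difference between replicates shared by the groups, 23 of 41 were called and all were higher, where 10.6% of all genes were called higher. The share of higher calls over all genes depended on scaling: 604 genes were called higher and 1105 lower, against 895 and 930 after median-ratio scaling, under which 5 of the 41 were called, all higher. Within replicates, 35 of the 41 genes were higher in both pairs of libraries, where 29.2% of all genes were, and in 25 of them both DHT libraries lay above both VEH libraries, where 20.0% of all genes did.

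**Figure D1:**
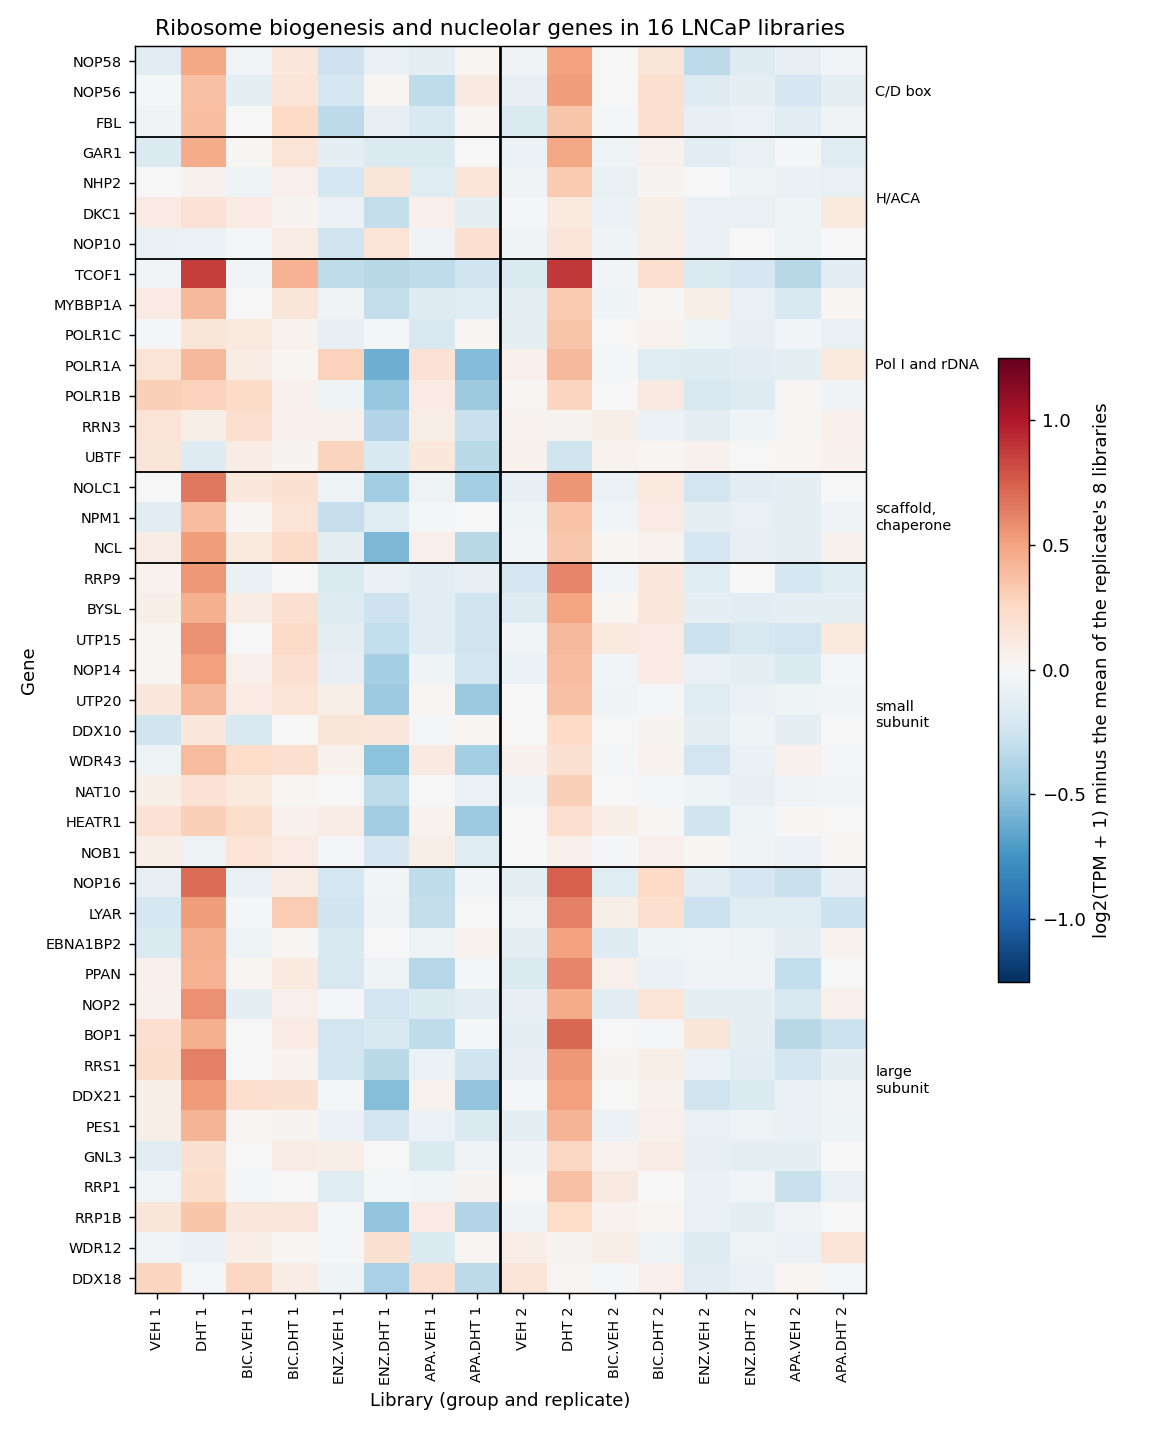
Colours show log2(TPM + 1) of each gene (rows, grouped by role) in each library (columns) minus the mean of that gene over the 8 libraries of the same replicate; replicate 1 is left of the thick line and replicate 2 right of it. The DHT column is the reddest in both replicates, with 36 of 41 genes higher than VEH on average, and the ENZ.DHT 1 and APA.DHT 1 columns are bluer than their replicate 2 partners.

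RRP9, a protein of the U3 snoRNP that guides early cuts for the small subunit, lies on chromosome 3 (51933429 to 51941904, GRCh38.p14). It measured 26.5 and 23.4 TPM in VEH and 37.9 and 41.9 TPM in DHT. The groups did not overlap, and the log2 fold change was 0.66 ± 0.12 (SE, n = 2 per group; limma adjusted p = 0.0071). Both DHT libraries were also above each of the other 14.

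NOP16, a large subunit assembly factor on chromosome 5 (176383946 to 176388598), measured 32.2 and 41.1 TPM in VEH and 56.7 and 75.7 TPM in DHT. Again no DHT library fell into the VEH range. Its log2 fold change was 0.83 ± 0.24 (SE, n = 2 per group; limma adjusted p = 0.0488). EBNA1BP2, which works in an early step of large subunit assembly, is on chromosome 1 (43164174 to 43172570) and measured 36.3 and 41.1 TPM in VEH and 56.6 and 63.3 TPM in DHT. It too separated the groups, with a log2 fold change of 0.62 ± 0.12 (SE, n = 2 per group; limma adjusted p = 0.00816). In the RefSeq annotation, 11 of the 41 genes overlapped a protein-coding gene, among them NOP16 (ARL10) and EBNA1BP2 (CFAP57). The others were BOP1, BYSL, GNL3, HEATR1, MYBBP1A, NHP2, POLR1C, PPAN and RRN3. Whether the counting used strand is not given in the sources used here.

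The stretch before the transcription start is shown for RRP9 and NOP16, called without the block, and for GAR1, the H/ACA gene that was called with the block. Sequences are from RefSeq (GRCh38.p14), read 5′ to 3′ on the gene's strand up to the base before the start, and stop where another annotated transcript begins. Capitals mark the ETS core CCGGAAG on either strand.
RRP9 (chr3:51941905-51942154, minus strand): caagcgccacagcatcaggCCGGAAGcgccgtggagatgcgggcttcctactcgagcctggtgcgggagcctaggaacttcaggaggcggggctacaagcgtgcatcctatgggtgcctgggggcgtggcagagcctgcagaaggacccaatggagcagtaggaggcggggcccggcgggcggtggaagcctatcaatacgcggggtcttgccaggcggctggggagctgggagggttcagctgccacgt
NOP16 (chr5:176388599-176388750, minus strand): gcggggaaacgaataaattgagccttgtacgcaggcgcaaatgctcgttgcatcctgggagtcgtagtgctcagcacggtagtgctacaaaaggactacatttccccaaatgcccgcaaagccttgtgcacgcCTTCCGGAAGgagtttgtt
GAR1 (chr4:109815383-109815509, plus strand): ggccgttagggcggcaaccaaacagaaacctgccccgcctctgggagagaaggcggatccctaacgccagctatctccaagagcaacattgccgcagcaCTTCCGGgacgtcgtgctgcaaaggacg

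The ETS core lay 231 bases before the start of RRP9 and 28 bases before the start of GAR1 that was printed. The window before another annotated start of GAR1 held no ETS core. NOP16 held a pair of overlapping copies, one on each strand, 19 and 16 bases before its start. Of the 41 genes, 34 had a promoter entry, and 11 of these 34 held the ETS core within 250 bases before a start, against 18.9% of 10584 tested genes with an entry. The E-box CACGTG was found in 6 of the 34 (DDX21, EBNA1BP2, LYAR, NAT10, NOP10 and UTP20), against 11.2% of tested genes. The CCAAT box, searched as CCAAT, was in 12 of the 34 against 41.9%, and the TATA box, searched as TATAAA, was in 1 of the 34 against 8.09%, all on both strands. EBNA1BP2, also called without the block, was not printed. It held the ETS core 47 and 28 bases before an annotated start and the E-box 237 bases before another. LYAR, called with the block, held no ETS core in this window but an E-box 64 bases before a start. The stretches printed all hold the ETS core and so do not stand for the whole list. These matches describe letters in a short window, and binding was not measured.

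Among the 7 genes of RNA polymerase I and ribosomal DNA transcription, 3 were called with the block and all were higher with DHT. TCOF1 (treacle), a nucleolar phosphoprotein that aids ribosomal DNA transcription and lies on chromosome 5 (150357697 to 150400293), had the largest fold change of the 41. It measured 7.19 and 10.3 TPM in VEH and 14.4 and 22.5 TPM in DHT, so that the lower DHT library was still above the higher VEH library. The log2 fold change was 0.98 with an SE of 0.38 and a limma adjusted p of 0.136 without the block, and with an SE of 0.12 and an adjusted p of 0.000166 with it. MYBBP1A, a nucleolar repressor of several transcription factors, and POLR1C, a subunit shared by polymerases I and III, had log2 fold changes of 0.37 and 0.32 (adjusted p with the block 0.0314 and 0.0424). The catalytic subunits POLR1A and POLR1B had 0.29 and 0.12, and the initiation factor RRN3 had -0.050, none of them called in either fit.

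UBTF, the factor that keeps ribosomal DNA repeats open for polymerase I, had the opposite sign. It measured 69.1 and 63.9 TPM in VEH and 55.4 and 51.7 TPM in DHT. Both DHT libraries lay below both VEH libraries, and UBTF was the only one of the 41 genes with this arrangement, where 36.4% of all genes had it. The log2 fold change of -0.31 did not pass the test (adjusted p = 0.199 without the block and 0.107 with it), although it was called lower with the block when ENZ.DHT 1 and APA.DHT 1 were left out (adjusted p = 0.00453). UBTF was singled out after its values were seen.

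All 3 C/D box proteins were called with the block. NOP58, a core protein of these particles, measured 40.2 and 58.4 TPM in VEH and 62.9 and 86.1 TPM in DHT, a log2 fold change of 0.59 (adjusted p = 0.204 without the block and 0.000343 with it). Its groups were separate. The paralogous core protein NOP56 had 0.50 and the methyltransferase FBL (fibrillarin) 0.47, with blocked adjusted p of 0.00456 and 0.00299.

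The 4 H/ACA proteins, which form 1 complex, did not move by the same amount. GAR1 measured 17.5 and 22.2 TPM in VEH and 27.9 and 33.3 TPM in DHT, with no overlap and a log2 fold change of 0.60 (adjusted p = 0.0546 without the block and 0.00138 with it). The pseudouridine synthase DKC1 (dyskerin) measured 69.6 and 81.9 TPM in VEH and 73.6 and 90.0 TPM in DHT, which overlap. DKC1 and NOP10 each had a log2 fold change of 0.11 and NHP2 had 0.21, none called in either fit. Whether GAR1 differed from its 3 partners was not tested.

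**Figure D2:**
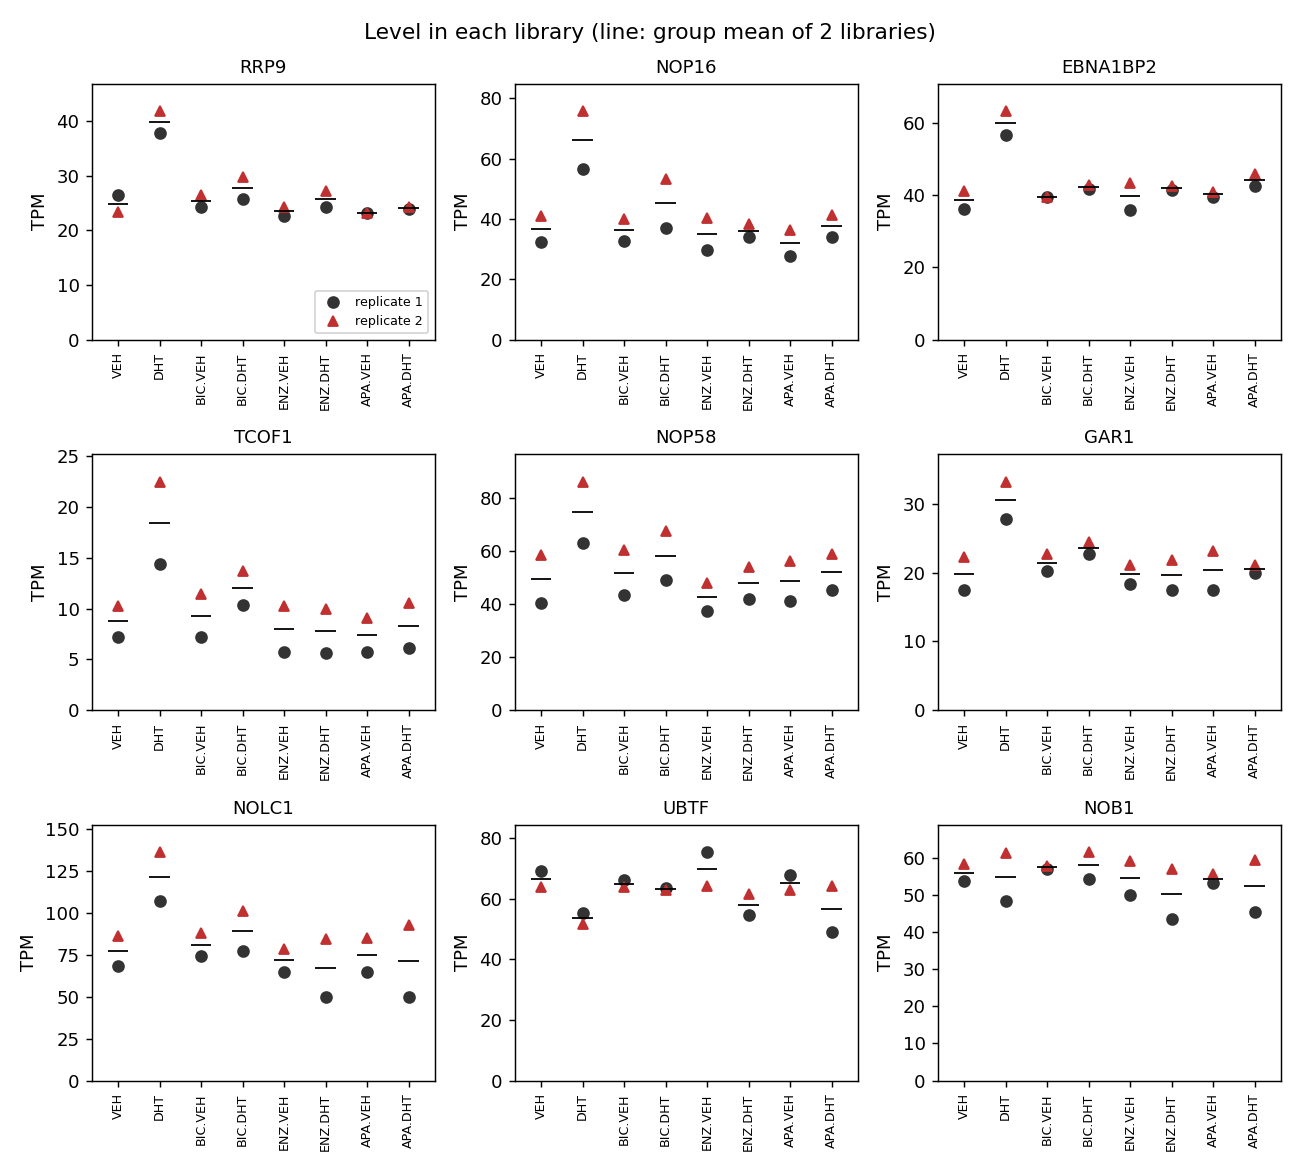
TPM (vertical axes, from 0) of 9 genes in each of the 8 groups, with circles for replicate 1, triangles for replicate 2 and a line at the mean of the 2 libraries. For the first 7 genes both DHT libraries exceed both VEH libraries, for UBTF both are lower, and for NOB1 the groups overlap.

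Of the 3 nucleolar scaffold and chaperone genes, NOLC1, a snoRNP chaperone that partners treacle, was the most responsive. It measured 68.0 and 86.2 TPM in VEH and 107 and 136 TPM in DHT, which do not overlap, with a log2 fold change of 0.65 (adjusted p = 0.22 without the block and 0.00847 with it). NPM1 measured 842 and 1469 TPM in VEH and 1203 and 1945 TPM in DHT. Its DHT and VEH libraries overlapped, because replicate 2 was higher than replicate 1 in both groups, and its log2 fold change of 0.46 was called with the block only (adjusted p = 0.565 and 0.00191). NCL had 0.41 and was not called in either fit (adjusted p with the block 0.0925).

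Among the 10 small subunit genes, 4 were called with the block. Besides RRP9 these were BYSL, which acts on the pre-40S particle, at 0.51, UTP15, which joins ribosomal DNA transcription to processing, at 0.50, and NOP14, a processome protein, at 0.47. UTP20, DDX10, WDR43, NAT10 and HEATR1 lay between 0.17 and 0.32 and were not called. NOB1, the endonuclease that makes the last cut of the small subunit RNA, had the fold change nearest to 0 of all 41 genes, at -0.039. It measured 53.6 and 58.3 TPM in VEH and 48.3 and 61.2 TPM in DHT, so that the DHT libraries lay on either side of the VEH libraries.

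The large subunit genes gave the most calls, 10 of 14 with the block. LYAR, a growth-linked nucleolar zinc finger protein, measured 7.63 and 11.4 TPM in VEH and 13.5 and 19.0 TPM in DHT, separate groups with a log2 fold change of 0.72 (adjusted p = 0.108 without the block and 0.00172 with it). PPAN had 0.58, NOP2, an RNA methyltransferase, 0.55, and RRS1, which brings 5S RNA to the particle, 0.53, all called with the block. BOP1, PES1 and WDR12 form the PeBoW complex, which acts in 28S RNA maturation. BOP1 measured 29.6 and 28.5 TPM in VEH and 35.0 and 51.7 TPM in DHT, and PES1 50.1 and 56.6 TPM in VEH and 64.2 and 82.9 TPM in DHT, with log2 fold changes of 0.54 and 0.45 (blocked adjusted p = 0.0288 and 0.00589). WDR12 measured 51.7 and 66.9 TPM in VEH and 50.1 and 64.6 TPM in DHT. These WDR12 groups overlapped, and its value of -0.046 had a 95% interval from -0.28 to 0.19 with the block. DDX18, a helicase of the same route, had -0.22 and was not called either. The helicase DDX21 and the GTPase GNL3 (nucleostemin) had 0.49 and 0.32, called with the block (adjusted p = 0.0454 and 0.0194), and the paralogs RRP1 and RRP1B had 0.31 and 0.23, called in neither fit.

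The antagonists given together with DHT were each compared with DHT alone. These comparisons share the 2 DHT libraries with each other and with DHT against VEH, so their values are given side by side only. Lower levels than with DHT alone were found in both replicates for 35 of 41 genes in BIC.DHT (35.9% of all genes), 36 in ENZ.DHT (36.4%) and 36 in APA.DHT (33.2%). The median log2 fold change over the 41 genes was -0.29 with bicalutamide, -0.58 with enzalutamide and -0.50 with apalutamide, where the median of all genes was within 0.014 of 0.

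**Figure D3:**
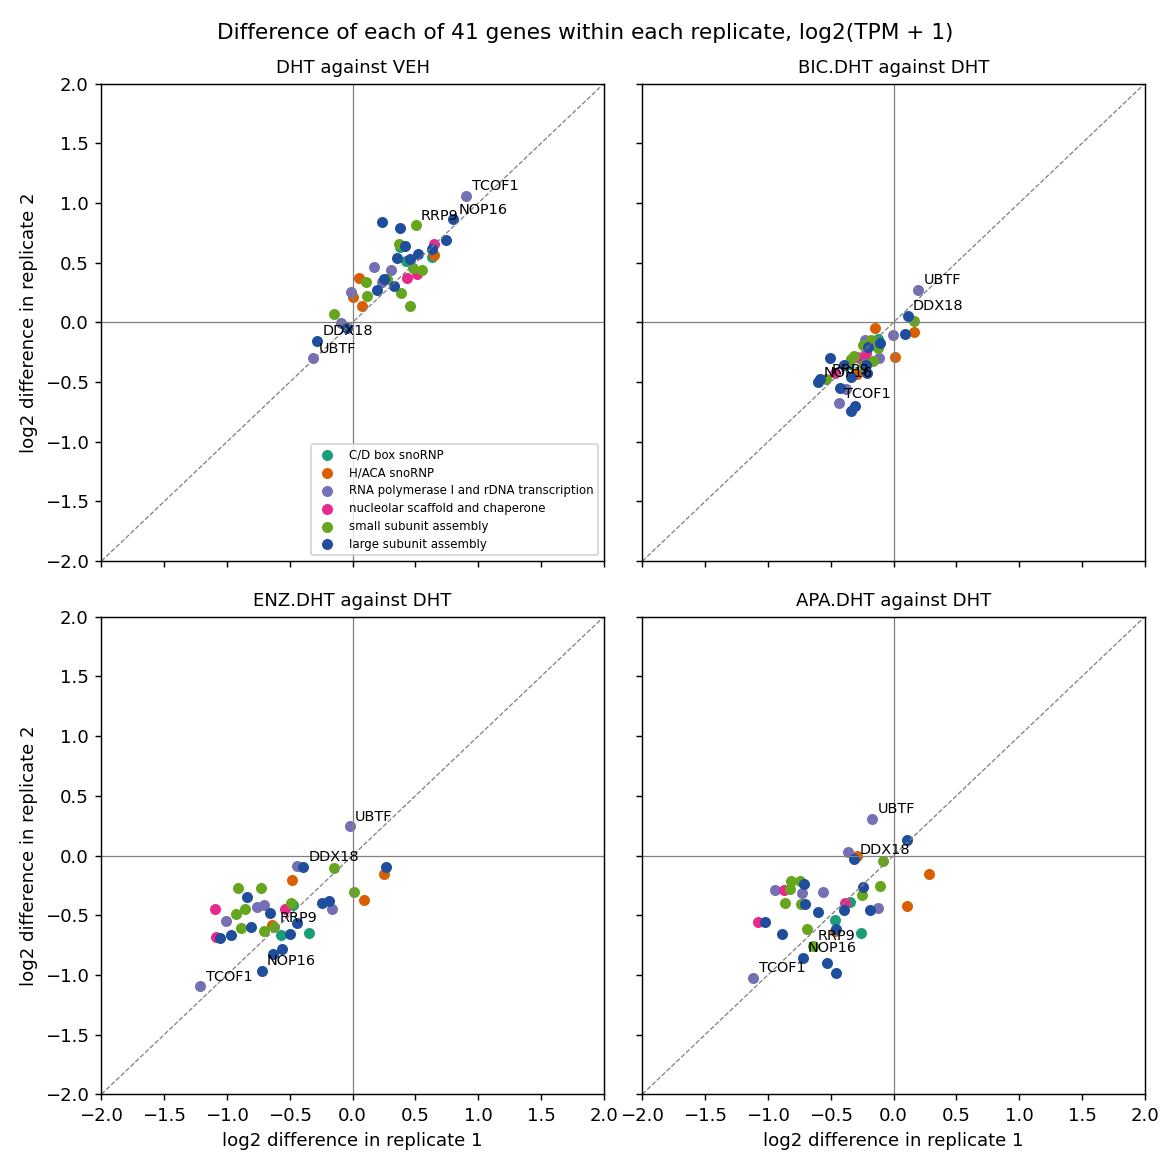
Each point is 1 of the 41 genes, coloured by role, with its log2(TPM + 1) difference in replicate 1 (horizontal) and replicate 2 (vertical) for 4 comparisons; the dashed line marks equal values. With DHT, 35 genes lie above and right of 0, and in the antagonist panels 35 to 36 lie below and left of 0, where the enzalutamide and apalutamide points reach further in replicate 1.

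With bicalutamide, 0 of 41 genes were called by limma without the block (5 at an unadjusted p below 0.05), where 1.68% of all genes were called lower, and 11 with the block, all lower, where 6.82% were. RRP9 measured 25.8 and 29.8 TPM in BIC.DHT, below both DHT libraries, with a log2 fold change of -0.51 (adjusted p = 0.0539 without the block and 0.00894 with it). NOP16 measured 37.1 and 53.2 TPM, also below both DHT libraries, at -0.55 (adjusted p = 0.303 and 0.00401). EBNA1BP2 measured 41.9 and 43.0 TPM, at -0.49 (0.0555 and 0.00504). TCOF1 measured 10.4 and 13.7 TPM and so remained above the VEH library of the same replicate in each case, while lying below both DHT libraries. It had a value of -0.56 (0.568 and 0.0105).

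With enzalutamide the median was the lowest of the 3. Here 3 of 41 genes were called without the block, all lower, where 4.91% of all genes were called lower, and 32 with the block, all lower, where 15.9% were. The 3 were RRP9, EBNA1BP2 and NOP16, the genes called for DHT against VEH. RRP9 measured 24.3 and 27.3 TPM in ENZ.DHT, a log2 fold change of -0.61 ± 0.12 (SE, n = 2 per group; limma adjusted p = 0.0121). NOP16 measured 33.9 and 38.3 TPM, at -0.85 ± 0.24 (SE, n = 2 per group; limma adjusted p = 0.0474), and EBNA1BP2 41.4 and 42.6 TPM, at -0.50 ± 0.12 (SE, n = 2 per group; limma adjusted p = 0.0257). None of these values reached the DHT range. The count was 0 without the first ENZ.DHT or the second DHT library, 1 without the first DHT library and 7 without the second ENZ.DHT library. TCOF1 measured 5.62 and 10.0 TPM, each below the VEH library of the same replicate, and NOLC1 49.8 and 84.5 TPM. Their log2 fold changes of -1.15 and -0.89 were called with the block only (adjusted p = 6.9e-05 and 0.00152).

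Leaving out the libraries ENZ.DHT 1 and APA.DHT 1 changed the blocked counts little for enzalutamide and more for bicalutamide, although the latter comparison contains neither. The counts were then 30 of 41 for DHT against VEH, 25 for bicalutamide, 30 for enzalutamide and 25 for apalutamide. Over all genes the shares called were then 15.5% higher for DHT against VEH, and 13.3%, 13.2% and 12.1% lower for the 3 antagonists. In the enzalutamide comparison 29 of these 30 were lower and 1 was higher, and for DHT against VEH 29 of 30 were higher and 1 was lower. The exception was UBTF in both, which was also the 1 gene of the 25 called higher for bicalutamide and for apalutamide. The median was then -0.45 on the log2 scale for enzalutamide and -0.36 for apalutamide.

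With apalutamide 1 gene was called without the block, where 4.11% of all genes were called lower, and 26 with it, all lower, where 14.1% were. The 1 gene was RRP9, at 23.9 and 24.4 TPM in APA.DHT, both below the DHT libraries, with a log2 fold change of -0.70 ± 0.12 (SE, n = 2 per group; limma adjusted p = 0.00614). The count was 0 without the second DHT library and 2 without the second APA.DHT library. NOP16 measured 33.9 and 41.3 TPM, at -0.79, and TCOF1 6.08 and 10.6 TPM, at -1.07, both called with the block only (adjusted p = 0.000209 and 0.000118). UBTF, which had been lower with DHT, measured 63.6 and 62.7 TPM in BIC.DHT, 54.4 and 61.5 TPM in ENZ.DHT and 49.1 and 64.3 TPM in APA.DHT. Its log2 fold changes against DHT were 0.24, 0.11 and 0.069, none of them called with all libraries.

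**Figure D4:**
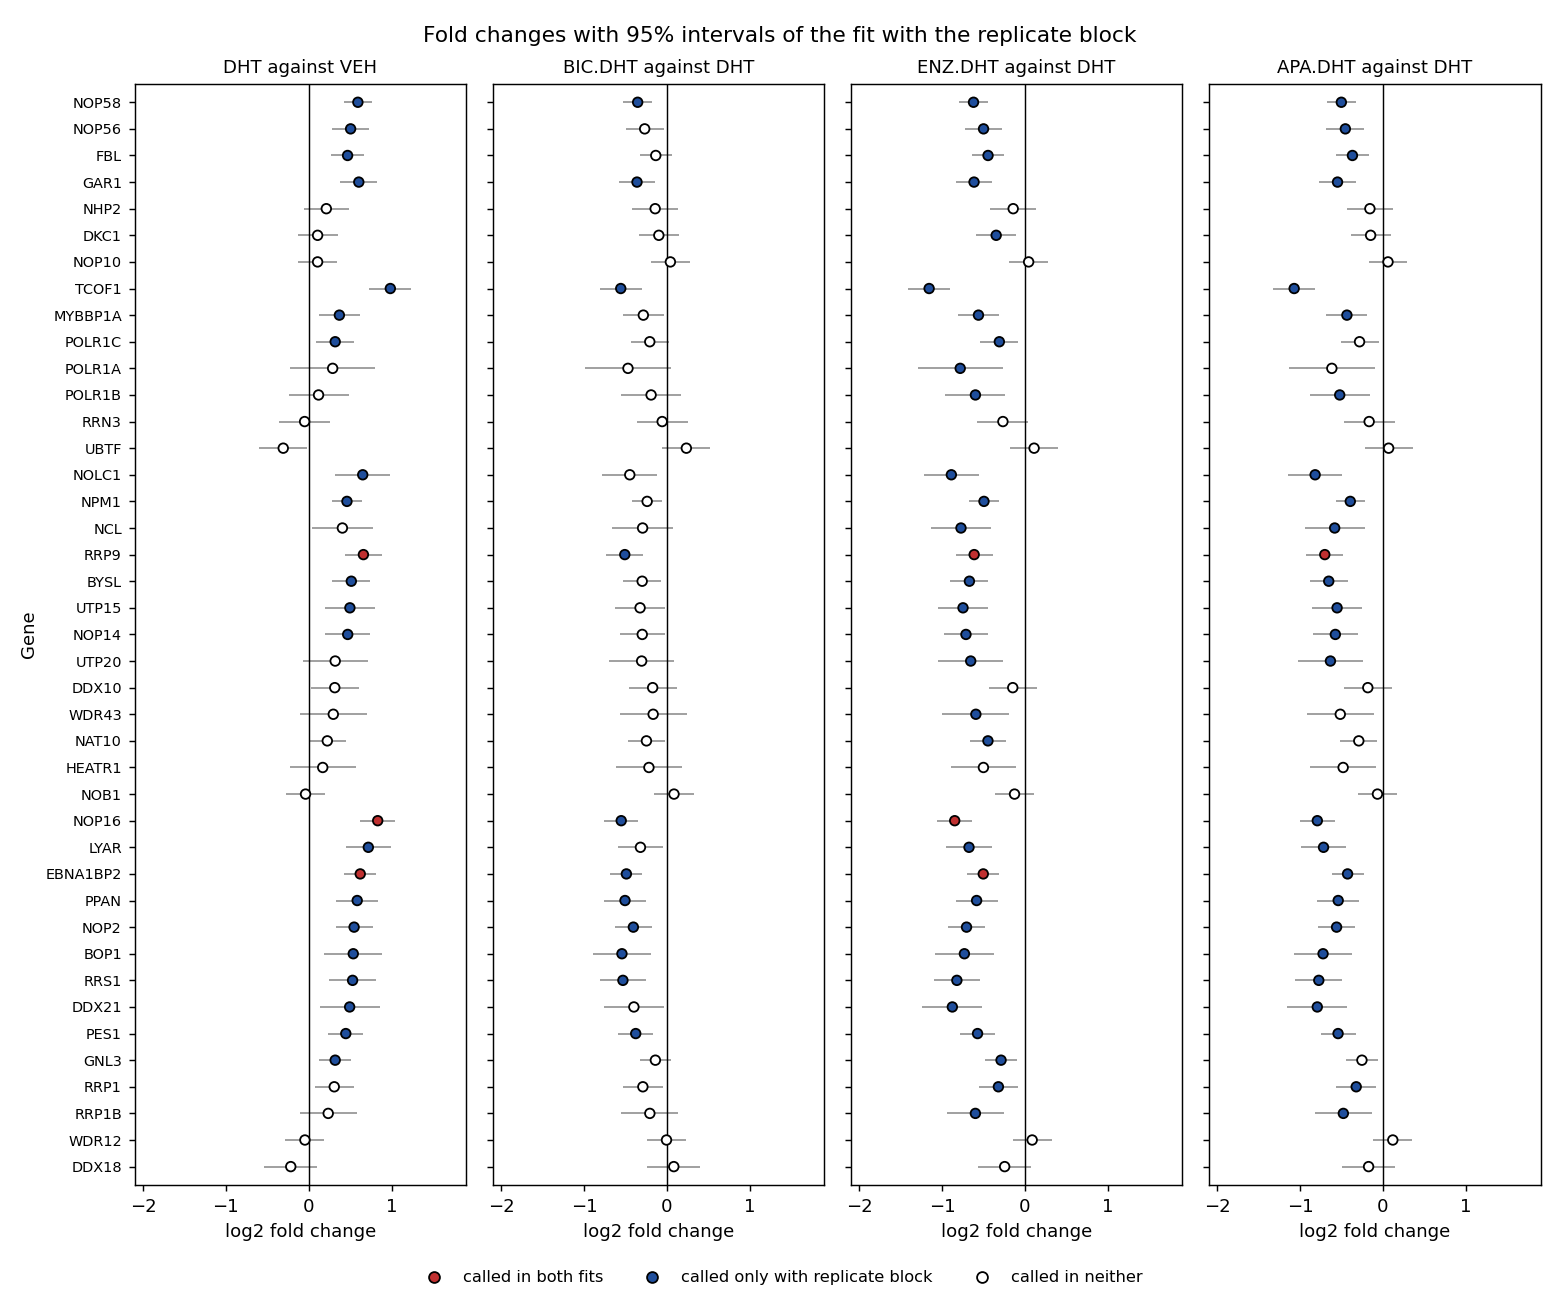
Log2 fold changes (horizontal axes) of the 41 genes in 4 comparisons, with 95% intervals from the fit with the replicate block; red points were called with and without the block, blue points with it only and white points in neither. Blue and red points lie right of 0 for DHT against VEH (23 genes) and left of 0 for BIC.DHT (11), ENZ.DHT (32) and APA.DHT (26) against DHT.

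The antagonists were also set against each other in the presence of DHT, in 3 pairs. None of the 41 genes was called in any pair, by limma without the block (0 at an unadjusted p below 0.05) or with it (22, 8 and 0 at an unadjusted p below 0.05 for ENZ.DHT against BIC.DHT, APA.DHT against BIC.DHT and APA.DHT against ENZ.DHT), where 0.0120%, 0.0541% and 0.00601% of all genes were called with the block. The median log2 difference was -0.27 for enzalutamide against bicalutamide, with 38 of 41 genes lower, and -0.18 for apalutamide against bicalutamide. Within replicates 1 and 2 the medians were -0.34 and -0.15 for the former and -0.23 and -0.10 for the latter. Over all genes they were -0.073 and 0.010, and -0.075 and 0.053. Lower in both replicates were 34 and 27 of the 41 genes (30.2% and 22.9% of all genes). Without ENZ.DHT 1 and APA.DHT 1 the medians were -0.14 and -0.079 in the fit with the block, where those of all genes were 0.024 and 0.065. ENZ.DHT and APA.DHT then had 1 library each. Between apalutamide and enzalutamide, which share a thiohydantoin ring, the median was 0.066. TCOF1 had the lowest blocked adjusted p for enzalutamide against bicalutamide, 0.0994, at a difference of -0.60 with a 95% interval from -0.85 to -0.34. Its interval for apalutamide against enzalutamide ran from -0.17 to 0.34.

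Without androgen, the antagonists were compared with VEH. None of the 41 was called for BIC.VEH, ENZ.VEH or APA.VEH against VEH in either fit (0 at an unadjusted p below 0.05 without the block, and 0, 1 and 2 with it), where at most 0.0180% of all genes were called. Medians were 0.037, -0.099 and -0.058. Against VEH, 22 of the 41 genes were lower in both replicates with enzalutamide (25.4% of all genes) and 26 with apalutamide (35.5%), of which 6 had both APA.VEH libraries below both VEH libraries (12.4% of all genes). With bicalutamide, 17 were higher in both replicates (21.5% of all genes) and 8 lower (33.4%). DHT given on top of an antagonist also called 0 of 41 genes in each of the 3 comparisons, with and without the block (5, 1 and 3 at an unadjusted p below 0.05 with the block for bicalutamide, enzalutamide and apalutamide, 0 without it), where at most 0.0240% of all genes were called. The medians were 0.069, -0.064 and 0.047, against 0.41 for DHT without an antagonist. Within replicates 1 and 2 they were 0.090 and 0.083 for bicalutamide, -0.11 and 0.028 for enzalutamide and 0.0046 and 0.081 for apalutamide. The medians of all genes were -0.072 and -0.046, -0.21 and -0.016, and -0.16 and 0.021 in the same order. Higher in both replicates were 23, 9 and 17 of the 41 genes (18.3%, 13.8% and 20.8% of all genes). Lower in both were 6, 12 and 5 (44.8%, 38.8% and 28.8%).

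The difference between the responses to DHT with and without an antagonist was tested as an interaction. It called 0 of the 41 genes without the block (3, 5 and 3 at an unadjusted p below 0.05 for bicalutamide, enzalutamide and apalutamide), where 0.986%, 1.63% and 1.42% of all genes were called. With the block it called 4, 12 and 11 genes, all with a lower response to DHT under the antagonist, where 3.15%, 5.72% and 4.91% of all genes had a negative call. Without ENZ.DHT 1 and APA.DHT 1 these negative calls numbered 14 of 41 for each antagonist, where 7.49%, 7.09% and 6.33% of all genes had one, and apalutamide had 1 positive call among the 41, UBTF. With all libraries, TCOF1, NOP16, EBNA1BP2 and NOP58 were called for each of the 3 antagonists.

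The other genes of the pathway were listed by role, and their counts for DHT against VEH stand beside 3.63% of all genes called higher and 6.64% lower without the block, and 10.6% and 16.8% with it. Of 43 further small subunit factors, 40 were higher with DHT and 2 were called (10 with the block), all higher, with a median of 0.27. AATF, a processome-associated factor, measured 37.5 and 35.8 TPM in VEH and 56.8 and 52.3 TPM in DHT, a log2 fold change of 0.56 (limma adjusted p = 0.00655). NOL6 had 0.53 (adjusted p = 0.0234). Of 52 further large subunit factors, 5 were called higher and 1 lower (16 and 1 with the block), with a median of 0.27. The 2 with the largest change were CCDC86, which rose from 32.9 and 37.7 TPM (VEH) to 68.5 and 78.7 TPM (DHT), and PAK1IP1, a WD-repeat protein of large subunit assembly. Their log2 fold changes of 1.04 and 1.02 (adjusted p = 0.0414 and 0.0161) exceeded those of all 41 genes.

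The 31 further polymerase I and III factors had a median of 0.00, with 1 called higher, POLR3K at 0.53 (adjusted p = 0.0249), and 1 lower, POLR3GL at -0.55 (adjusted p = 0.0117), while the block gave 4 in each direction. Of 22 tested exosome and RNase MRP/P genes, 1 was called, EXOSC9 at 0.53 (adjusted p = 0.048), and 5 with the block, all higher. Among 14 snoRNA host genes 1 was called, SNHG32, which was lower at -0.82 (adjusted p = 0.00134). With the block 1 was called higher, SNHG16 at 0.48 (adjusted p = 0.0171), and 2 lower, SNHG32 and EPB41L4A-AS1, the latter at -0.44 (adjusted p = 0.035).

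The cytoplasmic ribosomal proteins, the cargo of this assembly line, had values of the opposite sign. Of 79, 3 were higher with DHT and the median was -0.22, where that of all genes was -0.098. Within both replicates 71 were lower, where 48.1% of all genes were. In 12 of the 79 both DHT libraries lay below both VEH libraries, where 36.4% of all genes had this arrangement. None was called by limma without the block (1 at an unadjusted p below 0.05), and with it 0 were called higher and 17 lower, where 16.8% of all genes were called lower. Without ENZ.DHT 1 and APA.DHT 1 the blocked count was 39 of 79 lower, where 25.7% of all genes were. After median-ratio scaling the blocked count was 2 lower and the median -0.12. Over all genes 2413 were then called lower, with a median of -0.017. With TPM rescaled without mitochondrial genes the blocked count was 11 lower and the median -0.18. Over all genes 2620 were then called lower, with a median of -0.069. In ENZ.DHT against DHT all 79 were higher, with a median of 0.37, 1 called without and 44 with the block, where 4.74% and 13.3% of all genes were called higher, and the median without the libraries ENZ.DHT 1 and APA.DHT 1 was 0.27. Many ribosomal protein genes and NPM1 have near-identical pseudogene copies, between which reads may have been split.

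**Figure D5:**
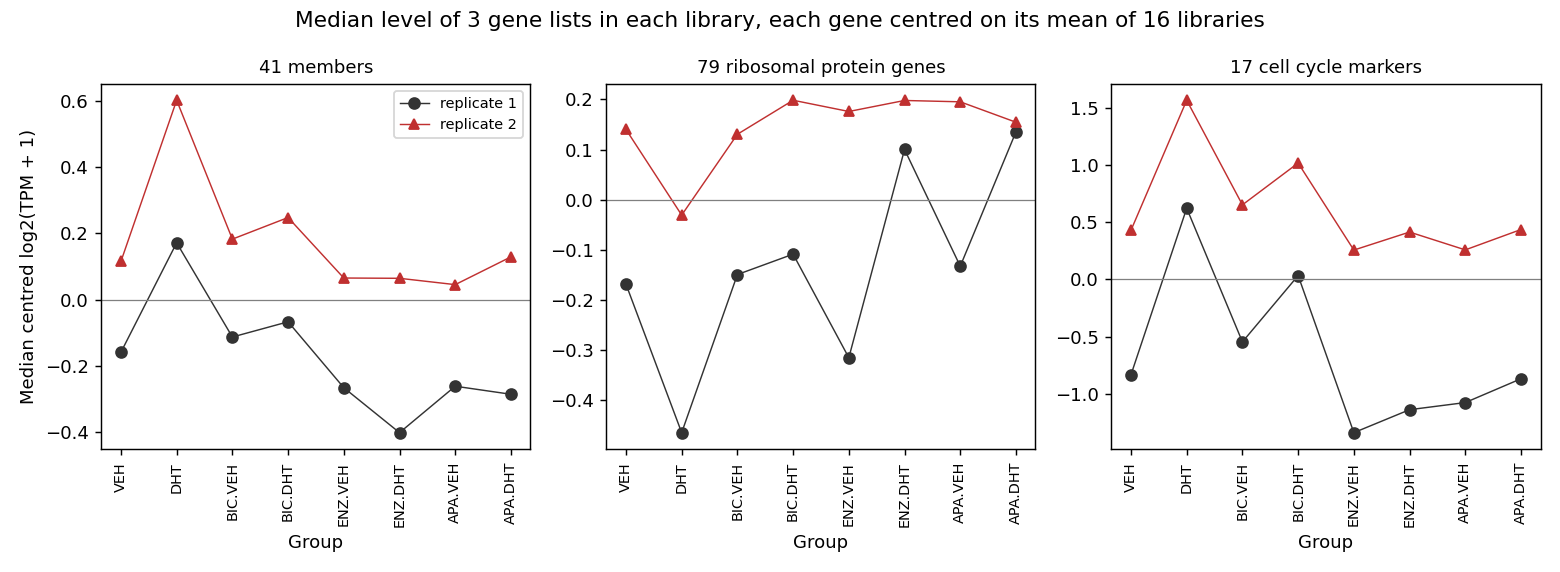
Median of log2(TPM + 1), each gene centred on its mean over 16 libraries, for the 41 genes, the 79 ribosomal protein genes and the 17 cell cycle markers (panels, each with its own vertical scale) by group, with circles for replicate 1 and triangles for replicate 2. The 41 genes peak in DHT (0.17 and 0.60), where the ribosomal protein genes are lowest (-0.46 and -0.031) and the cell cycle markers highest (0.62 and 1.57).

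Cell cycle markers moved in the same direction as the assembly genes. The summed TPM of 17 such markers was 298 and 646 in VEH, 740 and 1371 in DHT, 489 and 902 in BIC.DHT, 234 and 629 in ENZ.DHT and 269 and 647 in APA.DHT. For DHT against VEH all 17 were higher, with a median of 1.20, 0 called without the block (0 at an unadjusted p below 0.05) and 16 with it. Over all genes, 3.63% were called higher without the block and 10.6% with it. MKI67 and MCM2, a proliferation marker and a replication helicase subunit, had log2 fold changes of 1.65 and 1.08 (adjusted p = 0.365 and 0.304 without the block, 0.00214 and 0.0023 with it). The part of proliferation in the levels of the 41 genes was not tested, and in bulk samples more cycling cells and more RNA per cell cannot be told apart.

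The replicate number itself moved these genes. Over the 8 groups, 36 of the 41 were called higher in replicate 2 than in replicate 1 in the fit with the block, and 0 lower, where 23.4% of all genes were called higher. The median difference was 0.37, close in size to the 0.41 for DHT against VEH. NPM1 had the largest difference of the 41, at 0.72, followed by DDX18 at 0.71, whereas UBTF had -0.0072. The difference ran the same way in each group, with 36 to 40 of the 41 genes higher in replicate 2. The 17 cell cycle markers were also higher in replicate 2, all 17 called, with a median of 1.29, and what set the replicates apart was not tested.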

How the data were processed

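LNCaP libraries (stranded, polyA-selected, 125 bp paired reads, about 40 M pairs each) were grouped by the sample labels. Per the submitters' processing notes, the authors used FastQC 0.11.9, Trim Galore 0.6.5, STAR 2.7.2b, GRCh38 and RSEM 1.3.3. The deposited values are TPM per gene symbol (length-scaled estimates with no depth, 1 column per library; 0 columns of other samples), so no counting interval is given. Here log2(TPM + 1) of 16636 genes (TPM of at least 1 in 2 libraries) was fitted with limma 3.58.1 in R 4.3.3 (8 group means, all 16 libraries, trend option, no replicate term). The fit was also run on data simulated for DHT against VEH, with and without the block, as a check of its mean estimates only. Calls had a Benjamini-Hochberg adjusted p below 0.05 over all genes within a contrast. Fold changes are on the log2(TPM + 1) scale, which understates low genes. Replicates 1 and 2 are biological per the labels, with no source culture named. In replicate 1 some column names also carry a letter, A for VEH, BIC.VEH and BIC.DHT and C for DHT and APA.VEH. In replicate 2, VEH and DHT carry a B. What these letters stand for is not given, so pairs within a replicate may differ in it. Replicate numbers paired the libraries: deviations correlated at 0.204 to 0.635 over all 28 pairs of groups. The blocked fit is therefore printed where it changed a call.

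The members and lists were chosen with earlier results of these data known. Named genes were, by rule, the member with the largest absolute fold change in each role, the one nearest 0, members called without the block, and at most 2 called genes of each other list. Others were named after their values were seen. Alternatives were another pseudocount (0.1), other filters, scalings and sample sets, the block and leaving out libraries. Gene positions and promoters are from RefSeq (GRCh38.p14), which matched all 41 genes.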

Additional observations from a re-analysis of the deposited data

Results flagged for a closer look

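The response to DHT differed with an antagonist present, by the interaction term of the fit with the replicate block, for 4 genes with bicalutamide, 12 with enzalutamide and 11 with apalutamide. None of these was called without the block. Over all genes, 3.15%, 5.72% and 4.91% had a negative call with the block. Values are the log2 response to DHT with the antagonist minus that without it, and the 3 interactions share the DHT and VEH libraries. With bicalutamide they were -0.63 for TCOF1, -0.54 for NOP16, -0.52 for EBNA1BP2 and -0.43 for NOP58, with adjusted p between 0.0317 and 0.0469. With enzalutamide they were -1.01 for TCOF1, -0.78 for NOLC1, -0.77 for NOP16, -0.66 for NOP2, -0.64 for NOP14, -0.61 for GAR1, -0.58 for MYBBP1A, -0.57 for BYSL, -0.53 for EBNA1BP2, -0.53 for RRP9, -0.51 for PES1 and -0.42 for NOP58, with adjusted p between 0.00376 and 0.0439. With apalutamide they were -0.85 for TCOF1, -0.77 for NOLC1, -0.63 for LYAR, -0.60 for RRP9, -0.60 for NOP16, -0.58 for GAR1, -0.57 for BYSL, -0.49 for NOP58, -0.49 for EBNA1BP2, -0.49 for PES1 and -0.41 for NPM1, with adjusted p between 0.0100 and 0.0458. Without the libraries ENZ.DHT 1 and APA.DHT 1 the blocked count was 14 for bicalutamide, where 7.49% of all genes had a negative call.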

How the results depend on the processing

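Counts of called genes among the 41 depended mostly on the replicate block. For DHT against VEH the count was 3, and 2 with no filter on low values and 4 with a TPM of at least 5. It was 5 after median-ratio scaling and 5 with TPM rescaled without mitochondrial genes. With the replicate block it was 23, and 0 when the fit held the 2 groups alone. Over all genes, 604 were called higher, 895 after median-ratio scaling, 707 without mitochondrial genes and 1762 with the block. Bicalutamide with DHT against DHT gave 0, and 2 with no filter on low values and 1 with a TPM of at least 5. It gave 1 after median-ratio scaling, 2 without mitochondrial genes and 11 with the block. Over all genes, 279 were called lower, 332 after median-ratio scaling, 277 without mitochondrial genes and 1134 with the block. Enzalutamide with DHT gave 3, and 5 without mitochondrial genes, 32 with the block, 0 with only the groups compared and 0 to 7 with single libraries left out (0 without ENZ.DHT replicate 1 or DHT replicate 2, 1 without DHT replicate 1, 7 without ENZ.DHT replicate 2). Apalutamide with DHT gave 1, and 2 with a TPM of at least 5, 3 without mitochondrial genes, 26 with the block and 0 with only the groups compared. Over all genes, 684 were called lower, 787 without mitochondrial genes and 2348 with the block. The interactions gave 0, and 4, 12 and 11 with the block for bicalutamide, enzalutamide and apalutamide. With the block 3.15%, 5.72% and 4.91% of all genes had a negative call.

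Alternatives added after seeing the data used the block together with another choice, in the order DHT against VEH, the 3 antagonists with DHT and the 3 interactions. Without ENZ.DHT 1 and APA.DHT 1 the counts were 30, 25, 30, 25, 14, 14 and 15. With median-ratio scaling they were 27, 12, 30, 29, 5, 11 and 12, and without mitochondrial genes 24, 11, 32, 29, 6, 12 and 11.

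Some fold changes turned sign. After median-ratio scaling, with or without the block, WDR12 had 0.049, RRN3 0.044 and NOB1 0.057 for DHT against VEH. Leaving out single libraries gave -0.23 to 0.14 for WDR12, -0.18 to 0.081 for RRN3, -0.59 to 0.15 for DDX18, -0.21 to 0.13 for NOB1, -0.037 to 0.25 for DKC1, -0.11 to 0.54 for NHP2, -0.041 to 0.25 for NOP10, -0.21 to 0.45 for POLR1B, -0.10 to 0.44 for HEATR1, -0.084 to 0.68 for WDR43, -0.58 to 0.11 for NPM1 (BIC.DHT against DHT) and -0.12 to 0.26 for UBTF (APA.DHT against DHT). Single libraries were left out of the fit without the block, so the group's remaining library was set against both replicates of the other group. Within replicates, NOB1 (-0.15 and 0.067), POLR1B (-0.017 and 0.25) and UBTF in APA.DHT (-0.17 and 0.31) differed in sign. The others kept the same sign in both, such as NPM1 (-0.22 and -0.26) and WDR43 (0.45 and 0.14). The cause was not tested. For the 41 genes the block changed no other call than those counted here and in the report. TPM keeps no depth, and with 2 libraries per group, single values rest on 1 library each.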
